A study of Mus musculus with 9 samples.

Results

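Monocytes and macrophages of the colon were followed through 10 genes that mark them or control their growth: Csf1, Csf1r, Ly6c2, Ccr2, Cx3cr1, Adgre1, Cd68, Lyz2, C1qa and C1qb. The genes were chosen by symbol, with earlier results of these data known, and all 10 were present among the 21498 gene symbols of the series. The series holds RNA-seq of colon tissue from 9 male outbred ICR mice (3 groups of 3), which were 5 weeks old when the experiment began. Control mice received neither AOM/DSS nor antibody, and their tissue was labelled normal colorectal mucosa. The AOM/DSS + IgG Ab mice and the AOM/DSS + anti-S100a9 Ab mice were injected once with the colon carcinogen azoxymethane (AOM, 10 mg/kg) and then drank dextran sulfate sodium (DSS), an agent that causes colitis, in 3 cycles (2% over 7 days at first, later 1.5% over 5 days). During the DSS cycles these mice were given 1.5 mg/kg of antibody intravenously every 2 days, either negative control IgG or a rabbit polyclonal antibody against S100a9, a calcium-binding protein of myeloid cells. The samples of both AOM/DSS groups were labelled colorectal adenocarcinoma at the end of week 18, while the study's text calls the anti-S100a9 Ab tissue mucosa. The Control mice differed from the other mice in AOM, in DSS and in antibody, so these cannot be told apart in a comparison with Control. Whole tissue was sequenced, so fewer cells of a type and less RNA per cell cannot be told apart.

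The macrophages of the normal gut wall are largely replaced from blood monocytes. Monocytes that carry Ly6C enter the tissue through the chemokine receptor Ccr2, lose Ly6C, and gain Cx3cr1 and the surface protein F4/80, the product of Adgre1. Their survival depends on the receptor Csf1r and its ligand Csf1, and resident cells make large amounts of the C1q chains that start the classical complement pathway.

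Pairs of related genes, each with a member among these 10, were shown with their promoter sequences (C1qb with C1qc and Lyz2 with Lyz1). They were shown because their levels moved together (the C1q chains) or apart (the lysozymes). C1qa, C1qb and C1qc lie side by side on the minus strand of chromosome 4 (C1qa at chr4:136895917-136898803, C1qb at chr4:136880129-136886187 and C1qc at chr4:136889804-136893065 in GRCm38, GENCODE M21). Lyz2, the lysozyme of macrophages and neutrophils (chr10:117277331-117282321), and Lyz1, that of Paneth cells (chr10:117287797-117292868), are neighbours on the minus strand of chromosome 10. The stretches below are from the RefSeq promoter table for GRCm38.p6, written 5′ to 3′ on the gene's strand and limited to bases before the annotated gene. Capitals mark GAGGAA or its reverse complement TTCCTC, letters that the myeloid factor PU.1 can bind.
C1qb, chr4:136886201-136886450: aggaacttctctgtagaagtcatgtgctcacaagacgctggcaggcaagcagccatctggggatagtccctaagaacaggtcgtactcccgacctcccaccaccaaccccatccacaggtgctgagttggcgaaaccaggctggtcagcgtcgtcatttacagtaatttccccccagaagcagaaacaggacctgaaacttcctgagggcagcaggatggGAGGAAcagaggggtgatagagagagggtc
C1qc, chr4:136893066-136893164: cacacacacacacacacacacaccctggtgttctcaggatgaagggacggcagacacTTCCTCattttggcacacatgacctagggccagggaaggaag
Lyz2, chr10:117282322-117282522: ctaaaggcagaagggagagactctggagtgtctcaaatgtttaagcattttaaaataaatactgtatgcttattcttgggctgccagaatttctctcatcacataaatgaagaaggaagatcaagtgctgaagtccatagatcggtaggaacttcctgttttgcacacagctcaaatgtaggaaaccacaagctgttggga
Lyz1, chr10:117292918-117293118: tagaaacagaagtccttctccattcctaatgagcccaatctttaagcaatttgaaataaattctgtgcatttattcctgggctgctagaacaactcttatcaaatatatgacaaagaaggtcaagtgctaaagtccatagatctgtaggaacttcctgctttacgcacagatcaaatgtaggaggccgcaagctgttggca
The match in C1qb began 30 bases before the RefSeq start site, and that in C1qc, on the other strand, 193 bases before it. No match stood in either lysozyme stretch. Of the 10 genes, 7 had an entry of 300 bases in the table, from 250 bases before the start to 50 after it, and 3 of these entries (Ly6c2, Cd68 and C1qb) held the letters on either strand, against 28.3% of all 32851 entries. A match is a description of the letters only. The stretches of Lyz2 and Lyz1 were identical at 151 of 203 aligned positions (74.4%).

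The deposited values had the form of FPKM, fragments per kilobase of transcript scaled to the depth of the library, which can be compared between genes of different length. Their totals were 308377 to 408811 per sample. The value of a single fragment, read from the lowest values of long genes with 1 transcript, corresponded to about 23400000 to 30100000 fragments per sample. By that estimate the smallest value of Ly6c2 rested on about 41 fragments and that of Ccr2 on about 130, while every other gene of the 10 had about 270 or more in each sample. S100a9, the target of the antibody, stood at 0.602 ± 0.245 FPKM in Control (SD, n = 3), 168 ± 102 with IgG Ab and 9.16 ± 3.20 with anti-S100a9 Ab. Gapdh, which nearly all cells express strongly, did not exceed 0.755 FPKM in any sample, and Irf8, a regulator of monocyte development, was listed at 0 in all 9, so a 0 was taken only as listed at 0.

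Over the 9 samples the mean levels ran from Lyz2 (567 FPKM) through C1qa (168), C1qb (109), Cd68 (25.6), Ly6c2 (20.02), Csf1r (17.6), Adgre1 (7.92), Csf1 (7.75) and Cx3cr1 (4.58) to Ccr2 (2.43). The samples of C1qa and C1qb overlapped in level, as did those of Cd68, Ly6c2 and Csf1r, those of Adgre1, Csf1 and Cx3cr1, and those of Cx3cr1 and Ccr2. Ly6c2 also overlapped Adgre1, Csf1, Cx3cr1 and Ccr2, while Csf1r and Ccr2 each overlapped Adgre1 and Csf1. Defining macrophage markers (Adgre1, Csf1r, Cd68 and the C1q chains) were thus present in every sample, next to the epithelial marker Epcam at 584 to 890 FPKM.

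**Figure D1:**
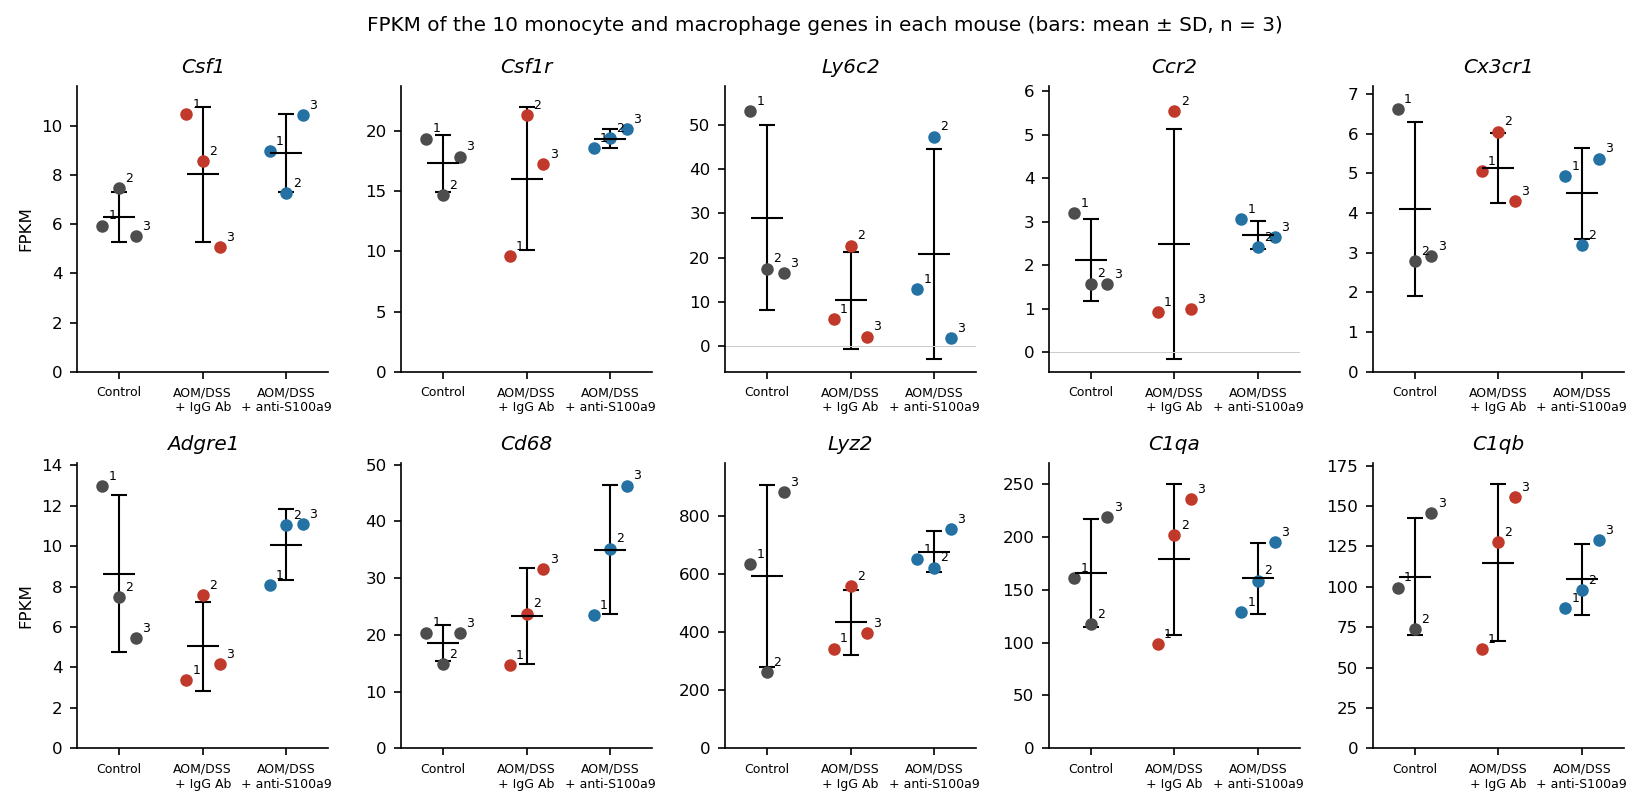
FPKM (y axis, from 0) of each of the 10 genes in the 9 mice, by group (x axis), where points are mice numbered 1 to 3 and bars are the mean ± SD of 3 mice. AOM/DSS + anti-S100a9 Ab mice lay above all AOM/DSS + IgG Ab mice for Adgre1 and Lyz2 and above all Control mice for Cd68, whereas Ly6c2 ranged from 1.77 to 53.3 FPKM over the 9 mice.

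None of the 10 genes changed between any 2 groups at an adjusted p under 0.05. The test was limma's moderated test on log2(FPKM + 0.1) of the 15278 genes that reached 0.1 FPKM in 3 samples or more, and differences below are on that scale, which understates the change of low genes. All 10 genes passed that filter. In AOM/DSS + IgG Ab against Control, 0 of 10 passed, where 11.2% of all genes tested did (8.18% higher and 3.01% lower), and 0 had an unadjusted p under 0.05, against 29.5% of all genes. Between the antibody groups (anti-S100a9 Ab against IgG Ab, both after AOM/DSS), 0 of 10 passed, where 21.1% of all genes did (6.72% higher and 14.4% lower), and Adgre1 alone had an unadjusted p under 0.05, against 39.1% of all genes. In AOM/DSS + anti-S100a9 Ab against Control, 0 of 10 passed, where 0.0131% of all genes (2 genes) did, and Cd68 alone had an unadjusted p under 0.05, against 16.0% of all genes.

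The median difference of the 10 genes was -0.06 in AOM/DSS + IgG Ab against Control (all genes tested, 0.09), 0.47 between the antibody groups (all genes, -0.06) and 0.25 in AOM/DSS + anti-S100a9 Ab against Control (all genes, 0.04). The comparisons share samples, so these medians are not independent of one another. The samples of AOM/DSS + IgG Ab and Control overlapped for every one of the 10 genes, where 31.0% of all genes did not overlap. Between the antibody groups 2 of 10 genes, Adgre1 and Lyz2, lay wholly above in the anti-S100a9 Ab samples and none lay wholly below, where 18.5% of all genes lay wholly above and 28.5% wholly below. Against Control, Cd68 alone lay wholly above in the anti-S100a9 Ab samples (17.3% of all genes). By the thresholds the study used, an unadjusted p under 0.05 with a change of more than 2-fold, 1 of the 10 genes (Adgre1) was called between the antibody groups, against 16.0% of all genes, and 0 in the other comparisons, against 13.6% and 3.15%. The call of Adgre1 by those thresholds was lost (0 of 10) when IgG Ab mouse 1 or 3 or anti-S100a9 Ab mouse 2 or 3 was left out, and with a pseudocount of 1.

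**Figure D2:**
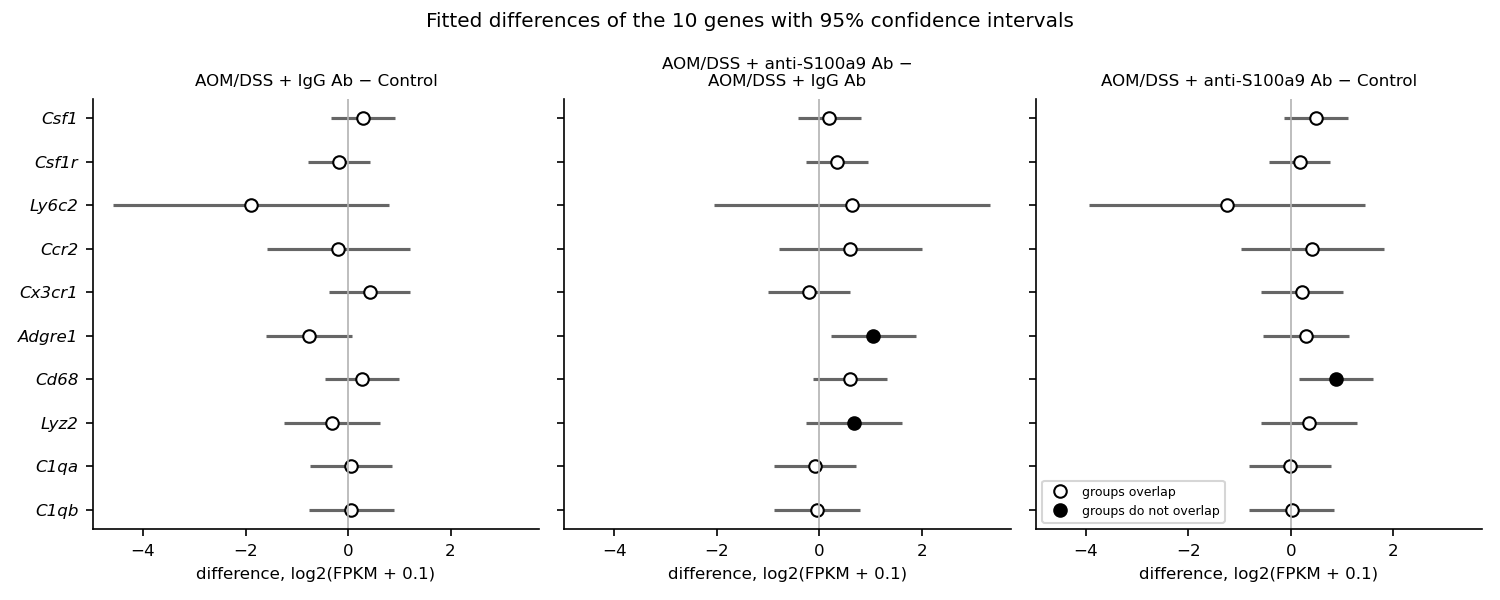
Fitted differences (x axis, log2(FPKM + 0.1)) of the 10 genes (y axis) in the 3 comparisons, with 95% confidence intervals as lines and filled points where the samples of the groups did not overlap. The intervals of Adgre1 (0.22 to 1.89, between the antibody groups) and Cd68 (0.15 to 1.60, anti-S100a9 Ab against Control) excluded 0 before adjustment, and those of Ly6c2 were the widest.

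The growth factor Csf1 and its receptor Csf1r, through which macrophages are kept alive, came first. Csf1 was at 5.95, 7.46 and 5.51 FPKM in Control, at 10.5, 8.57 and 5.07 in AOM/DSS + IgG Ab, and at 8.98, 7.28 and 10.5 in AOM/DSS + anti-S100a9 Ab. Csf1r was at 19.3, 14.7 and 17.8 FPKM in Control, at 9.60, 21.3 and 17.2 in AOM/DSS + IgG Ab, and at 18.5, 19.4 and 20.1 in AOM/DSS + anti-S100a9 Ab. Both genes overlapped between all groups, and Csf1r was most even in the anti-S100a9 Ab mice (SD 0.778, against 5.93 in the IgG Ab mice). The difference of Csf1 was 0.30 in AOM/DSS + IgG Ab against Control (95% confidence interval -0.32 to 0.92) and 0.49 in AOM/DSS + anti-S100a9 Ab against Control (-0.13 to 1.11). That of Csf1r was -0.17 (-0.77 to 0.42) in the former and 0.34 (-0.25 to 0.94) between the antibody groups. The ratio of ligand to receptor within a sample ran from 0.295 to 0.520 in 8 samples, and the first AOM/DSS + IgG Ab mouse, with the highest Csf1 and the lowest Csf1r of its group, stood apart at 1.09.

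Of the genes of monocyte entry, Ly6c2 encodes the Ly6C surface protein of inflammatory monocytes, Ccr2 the receptor for Ccl2, and Cx3cr1 the receptor for fractalkine. Ly6c2 was at 53.3, 17.5 and 16.5 FPKM in Control, at 6.10, 22.7 and 2.06 in AOM/DSS + IgG Ab, and at 12.9, 47.4 and 1.77 in AOM/DSS + anti-S100a9 Ab. The mice of a group were so far apart that the pooled SD within groups (1.76 on the log2 scale) exceeded that of 98.7% of all genes tested, and the highest sample was 30.0 times the lowest. Its difference between the antibody groups, 0.64, had an interval of -2.05 to 3.33, and the difference of AOM/DSS + IgG Ab from Control, -1.89, one of -4.58 to 0.80. The latter was -2.77 without IgG Ab mouse 2 and -1.07 without IgG Ab mouse 3. Changes of several fold were thus not detectable with these mice.

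Ccr2 was at 3.20, 1.57 and 1.56 FPKM in Control, at 0.910, 5.55 and 0.990 in AOM/DSS + IgG Ab, and at 3.05, 2.42 and 2.64 in AOM/DSS + anti-S100a9 Ab. The second AOM/DSS + IgG Ab mouse held the highest Ccr2 of all 9 and the other mice of its group the lowest. The difference of Ccr2 between the antibody groups was 0.60 (interval -0.79 to 2.00). Cx3cr1 was at 6.63, 2.78 and 2.91 FPKM in Control, at 5.05, 6.05 and 4.30 in AOM/DSS + IgG Ab, and at 4.92, 3.20 and 5.37 in AOM/DSS + anti-S100a9 Ab. All groups overlapped for Cx3cr1, and its differences lay between -0.21 and 0.42, with intervals that reached up to 1.21. The ratio of Ccr2 to Cx3cr1, which sets a receptor of arriving monocytes against one of resident macrophages, was 0.483 to 0.565 in Control and 0.491 to 0.755 in AOM/DSS + anti-S100a9 Ab, and in AOM/DSS + IgG Ab it was 0.180, 0.917 and 0.230.

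Adgre1, Cd68 and Lyz2 mark macrophages by a surface protein, a lysosomal membrane protein and an antibacterial enzyme. Adgre1 (chr17:57358691-57483527) was at 12.96, 7.48 and 5.47 FPKM in Control, at 3.39, 7.57 and 4.16 in AOM/DSS + IgG Ab, and at 8.06, 11.1 and 11.1 in AOM/DSS + anti-S100a9 Ab. All 3 anti-S100a9 Ab mice were above all 3 IgG Ab mice, and the Control mice overlapped both groups. The difference between the antibody groups was 1.05 (SE 0.37, interval 0.22 to 1.89, a fold of 2.08), but its adjusted p was 0.0702, and in AOM/DSS + IgG Ab against Control it was -0.76 (-1.59 to 0.08, adjusted p = 0.207).

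Over the alternative fits the adjusted p of Adgre1 between the antibody groups ran from 0.0281 to 0.175 (limma). Genes of the 10 passed only in the fit that left out the second AOM/DSS + IgG Ab mouse. Without it, 2 of the 10 genes passed between the antibody groups, Ccr2 with a difference of 1.41 (adjusted p = 0.0258) and Adgre1 with 1.38 (adjusted p = 0.0281), both higher with anti-S100a9 Ab. In that fit 3448 of all 15126 genes tested passed, in either direction. That mouse held the highest value of its group for 6 of the 10 genes and the lowest for none. It also had more Ptprc, the gene of the pan-leukocyte protein CD45, than the other mice of its group (18.9 FPKM against 4.81 and 3.41). The B cell gene Ms4a1 was at 11.9 against 0.471 and 0.523. Other leukocyte genes did not follow. In IgG Ab mice 1, 2 and 3 the neutrophil marker S100a9 was at 63.1, 173 and 267 FPKM and the T cell gene Cd3g at 10.1, 8.39 and 2.78. The part of other leukocytes in the values of Ccr2 and Adgre1 was not tested.

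Cd68 (chr11:69664213-69666153) was at 20.4, 14.9 and 20.4 FPKM in Control, at 14.6, 23.7 and 31.5 in AOM/DSS + IgG Ab, and at 23.5, 35.2 and 46.3 in AOM/DSS + anti-S100a9 Ab. All 3 anti-S100a9 Ab mice were above all Control mice, and the IgG Ab mice overlapped both groups. The difference from Control was 0.87 (SE 0.32, interval 0.15 to 1.60, a fold of 1.83), with an adjusted p of 0.301, and that between the antibody groups was 0.60 (-0.13 to 1.33, adjusted p = 0.195). Set against Csf1r in the same sample, Cd68 was 1.01 to 1.14 times as high in Control, 1.12 to 1.83 times in AOM/DSS + IgG Ab and 1.27 to 2.30 times in AOM/DSS + anti-S100a9 Ab. The last range lay wholly above Control (exact permutation test, two-sided, p = 0.1, the smallest this design allows, and 0.72 after adjustment over 18 ratio tests), and no ratio test could reach 0.05.

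Lyz2 stood at 633, 262 and 881 FPKM in Control, at 343, 558 and 397 in AOM/DSS + IgG Ab, and at 651, 621 and 755 in AOM/DSS + anti-S100a9 Ab. The anti-S100a9 Ab mice were closest together and all above the IgG Ab mice, whereas Control held both the highest and the lowest value. The difference between the antibody groups was 0.67 (interval -0.27 to 1.61, adjusted p = 0.257). Lyz1, the Paneth cell copy, was at 24.6 ± 22.2 FPKM in Control, 343 ± 103 with IgG Ab and 41.2 ± 26.1 with anti-S100a9 Ab (SD, n = 3), and it passed the test as higher in AOM/DSS + IgG Ab than in Control (4.22, adjusted p = 0.0096) and as lower with anti-S100a9 Ab than with IgG Ab (-3.24, adjusted p = 0.0207), the latter in 16 of 19 alternative settings.

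The longest transcripts of Lyz2 and Lyz1 (1316 and 1263 bases) were identical at 92.0% of aligned positions, with at most 118 identical bases in a row, so fragments of both genes may have been split in the counting. Lyz1 made up 2.30% to 5.29% of the sum of both in Control, 35.9% to 53.6% in AOM/DSS + IgG Ab and 2.61% to 9.54% in AOM/DSS + anti-S100a9 Ab. The sum itself was 602 to 870 FPKM in AOM/DSS + IgG Ab and 638 to 793 in AOM/DSS + anti-S100a9 Ab, which overlapped, while Lyz2 alone did not. How far Lyz1 fragments entered the values of Lyz2 was not tested. Ly6c2 has a similar neighbour in Ly6c1 (95.02% identical over 844 aligned positions, up to 188 bases in a row), a gene that endothelial cells express as well. Ly6c1 was at 7.58 to 24.4 FPKM over all 9 samples and made up 17.5% of the sum in the first Control mouse and 90.7% in the third anti-S100a9 Ab mouse.

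C1qa and C1qb encode A and B chains of C1q, which the tissue's macrophages secrete. C1qa was at 161, 117 and 219 FPKM in Control, at 98.6, 202 and 235 in AOM/DSS + IgG Ab, and at 128, 159 and 195 in AOM/DSS + anti-S100a9 Ab. C1qb was at 99.5, 74.0 and 145 FPKM in Control, at 61.3, 128 and 156 in AOM/DSS + IgG Ab, and at 86.9, 97.9 and 129 in AOM/DSS + anti-S100a9 Ab. The groups lay on top of one another for both chains. Their differences in the 3 comparisons were all between -0.08 and 0.06, with intervals that stayed inside -0.88 to 0.90.

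Within a sample the chains kept a narrow ratio, with C1qa 1.48 to 1.62 times as high as C1qb in all 9 samples and 1.42 to 1.60 times as high as C1qc. Among 12550 tested genes with a mean of at least 1 FPKM, the profile most like that of C1qa over the 9 samples was that of C1qb, with a root mean square (RMS) difference of 0.05 on the log2 scale after centring each gene on its own mean. C1qc followed (0.07), then Dusp5, a phosphatase gene (0.16), Lrrc25 (0.18) and Gsto1 (0.22), where the median gene differed by 0.56. For Csf1r the nearest were Prkch, a protein kinase C gene (0.11), Vsir, the gene of the checkpoint protein VISTA (0.13), Gpr157 (0.14), the ATP receptor gene P2rx7 (0.16) and Rasa3 (0.16). C1qa itself differed from Csf1r by 0.29, from Cd68 by 0.42, from Adgre1 by 0.70 and from Ly6c2 by 1.77, so the 10 genes did not share 1 profile. These are descriptions over 9 samples that share their libraries.

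For Ly6c2 the same search, added after its values were seen, gave genes of antibody-secreting cells and no monocyte gene. The 5 nearest were Jchain, which encodes the joining chain of secreted IgA and IgM (RMS 0.71), the chemokine receptor gene Ccr10 (0.88), the IgA heavy chain gene Igha (0.89), the kappa chain gene Igkc (0.90) and Igkv16-104 (0.94), where the median gene differed by 1.71. Ccr2 differed from Ly6c2 by 1.44 and Csf1r by 1.60. Jchain was at 1974, 1156 and 1114 FPKM in Control, at 431, 1236 and 298 in AOM/DSS + IgG Ab, and at 634, 2578 and 364 in AOM/DSS + anti-S100a9 Ab, and it placed the mice in the same order as Ly6c2 in all 3 groups. Plasma cells of the mouse can carry Ly6C as well as monocytes. The part of plasma cells in the Ly6c2 values was not tested.

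**Figure D3:**
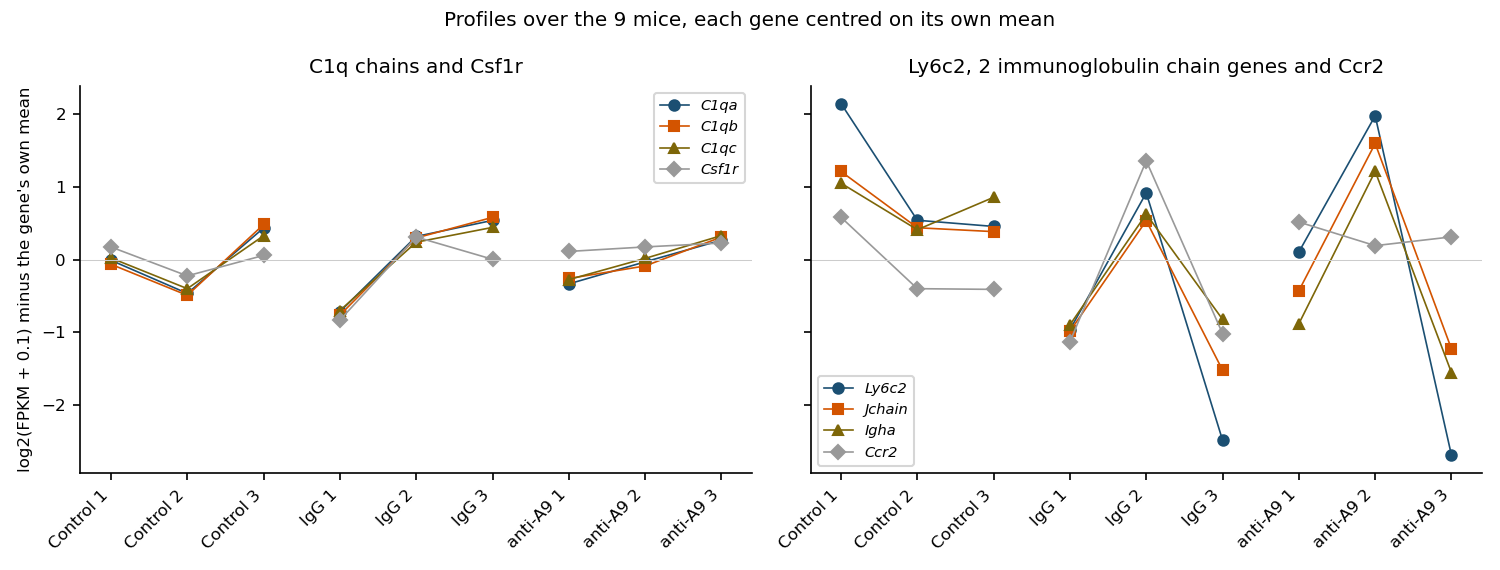
Profiles over the 9 mice (x axis; IgG stands for AOM/DSS + IgG Ab and anti-A9 for AOM/DSS + anti-S100a9 Ab), as log2(FPKM + 0.1) minus the gene's own mean (y axis), with a line for each gene within each group. On the left C1qa, C1qb and C1qc nearly coincide (RMS difference 0.05 and 0.07 from C1qa), and on the right Ly6c2 follows Jchain and Igha more closely than Ccr2 (0.71 and 0.89 against 1.44). Jchain and Igha were chosen as near profiles of Ly6c2 over the same mice.

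Lists of further genes of the same cells held both genes that passed and genes that did not. Of all genes tested, 11.2% passed in AOM/DSS + IgG Ab against Control and 21.1% between the antibody groups. Of 22 further macrophage markers, 1 rose in AOM/DSS + IgG Ab against Control (Fcer1g, the signalling chain shared by Fc receptors, 0.79, adjusted p = 0.0498) and 1 rose with anti-S100a9 Ab against IgG Ab (Ms4a7, 1.12, adjusted p = 0.0226). At an unadjusted limma p under 0.05 there were 7 and 4 of the 22, against 29.5% and 39.1% of all genes. Fcer1g kept its call in 2 of 19 alternative settings and Ms4a7 in 15 of 19. Ms4a7 was at 3.43, 6.04 and 4.58 FPKM with IgG Ab and at 8.04, 9.49 and 13.3 with anti-S100a9 Ab. Some of the largest differences of AOM/DSS + IgG Ab from Control did not pass although the samples did not overlap, and these genes were named after their values were seen. Trem2, a lipid receptor of macrophages, stood at 1.97 ± 1.30 FPKM in Control and 7.71 ± 4.18 with IgG Ab (2.03, interval 0.69 to 3.38, limma, adjusted p = 0.0597). Folr2, a folate receptor of resident macrophages, stood at 11.7 ± 3.00 and 3.91 ± 3.81 (-2.22, interval -4.01 to -0.43), and Mertk, which takes up dying cells, at 7.54 ± 1.85 and 3.50 ± 2.00 (-1.25, interval -2.24 to -0.26). The highest of the list, Ctss, a lysosomal protease gene, stood at 161 ± 70.7 FPKM with IgG Ab and 272 ± 31.9 with anti-S100a9 Ab (adjusted p = 0.0839), and Cd14, part of the receptor for bacterial lipopolysaccharide, at 175 ± 41.8 and 128 ± 1.76 (adjusted p = 0.266). The median difference of the list was 0.004 in AOM/DSS + IgG Ab against Control, 0.21 between the antibody groups and 0.22 against Control. Without the second IgG Ab mouse, 4 of the markers fell in AOM/DSS + IgG Ab against Control and 5 rose between the antibody groups. In that fit 2167 and 3448 of all 15126 genes tested passed in these comparisons, in either direction.

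Of 16 tested growth factors, receptors and transcription factors of the lineage, Csf3r, the receptor for granulocyte growth factor (1.70, adjusted p = 0.0111), and Nr4a1, a factor of patrolling monocytes that many activated cells induce (1.75, adjusted p = 0.0124), rose in AOM/DSS + IgG Ab against Control and none fell. With anti-S100a9 Ab against IgG Ab, Zeb2, a factor that maintains tissue macrophages but is also expressed in stroma, rose (1.39, adjusted p = 0.0314), while Cebpb (-1.74, adjusted p = 0.0256), Nr4a1 (-1.19, adjusted p = 0.0339) and the GM-CSF receptor gene Csf2ra (-0.67, adjusted p = 0.0305) fell. These calls held in 14 (Zeb2), 15 (Cebpb), 12 (Nr4a1) and 11 (Csf2ra) of 19 alternative settings, and both rises against Control in 19 of 19. None of the 16 passed between the antibody groups when IgG Ab mouse 3 or any one anti-S100a9 Ab mouse was left out. Fewer of all genes passed in those fits as well, 1515 of 15120 without IgG Ab mouse 3. Without anti-S100a9 Ab mouse 1, 2 or 3 there were 789 of 15185, 516 of 15223 and 1116 of 15217. With all mice 3219 of 15278 genes passed. At an unadjusted p under 0.05 there were 7 of the 16 in AOM/DSS + IgG Ab against Control (all genes, 29.5%) and 8 between the antibody groups (39.1%). Zeb2 was at 5.34 to 6.005 FPKM with anti-S100a9 Ab and at 1.49 to 2.80 with IgG Ab, without overlap. Csf2ra and Csf3r, outside the rule for named genes, were named after their values were seen. Of 16 monocyte markers and monocyte-attracting chemokines, led by Plac8 at a mean of 409 FPKM, and of 12 other complement genes, led by Serping1 at 82.2, 0 passed in limma in either comparison. At an unadjusted p under 0.05 there were 2 monocyte genes and 2 complement genes in AOM/DSS + IgG Ab against Control (all genes, 29.5%). Between the antibody groups there were 1 and 0, against 39.1% of all genes. No gene of these lists passed in the comparison of anti-S100a9 Ab with Control. There 3 growth factors and regulators, 2 macrophage markers, 1 monocyte gene and 4 complement genes had an unadjusted p under 0.05 (all genes, 16.0%).

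Among the lists of other cells, those of neutrophils, Paneth cells, stroma and adipocytes had the largest shares that passed in AOM/DSS + IgG Ab against Control. Of all genes tested, 8.18% passed as higher and 3.01% as lower in that comparison. Between the antibody groups 6.72% passed as higher with anti-S100a9 Ab and 14.4% as lower. Of 9 tested neutrophil markers 6 rose in AOM/DSS + IgG Ab against Control and 6 fell with anti-S100a9 Ab against IgG Ab, and their summed level was 89.9 to 120 FPKM in Control, 136 to 687 in AOM/DSS + IgG Ab and 99.97 to 179 with anti-S100a9 Ab. Ly6g, their defining surface marker, did not follow, at 104 ± 14.4, 72.4 ± 40.1 and 124 ± 36.4 FPKM (SD, n = 3). This gene made up most of the sum in Control (88.8 to 117 FPKM) and with anti-S100a9 Ab (82.1 to 150). In Control S100a8 did not exceed 0.951 FPKM and S100a9 did not exceed 0.859. Of 5 Paneth cell markers, 4 rose and then 5 fell in the same comparisons, and of 8 genes of stroma and endothelium 5 rose and 3 fell. Of 4 tested adipocyte markers 3 fell in AOM/DSS + IgG Ab against Control, with the defining marker Adipoq at 2.99 to 16.9 FPKM in Control and at or under 1.23 in the other samples. Of 10 epithelial markers Krt18 rose and Car1 fell in AOM/DSS + IgG Ab against Control, with the reverse between the antibody groups. Between the antibody groups Myh11 rose among 6 smooth muscle markers and Cd4 among 6 tested T cell markers. In any comparison, 0 of 6 B cell markers, 0 of 6 genes of all leukocytes and 0 of 9 dendritic cell markers passed. Of these lists, 3, 2 and 1 genes had an unadjusted limma p under 0.05 between the antibody groups (all genes, 39.1%). Single mice moved several of these counts. Without the second IgG Ab mouse, 5 of 6 B cell markers, 2 genes of all leukocytes and 2 dendritic cell markers rose between the antibody groups. There 3448 of all 15126 genes tested passed, in either direction. Smooth muscle went from 1 to 6 of 6 without IgG Ab mouse 3, where 1515 of all 15120 genes tested passed. The 5 stroma genes that rose against Control became 0 without Control mouse 1, Control mouse 2 or IgG Ab mouse 3, and in a fit of the 2 groups alone. Fewer of all genes passed in these fits too, 725 of 15224, 591 of 15217, 1104 of 15120 and 627 of 14985 in that order. With all 9 mice in the fit 1710 of 15278 genes passed. Over all 19 alternatives the neutrophil count stayed at 4 to 6 up against Control and 2 to 6 down between the antibody groups, and the Paneth cell count at 3 to 4 and 3 to 5. Neutrophils and monocytes share Lyz2, Csf3r, Cebpb and Fcer1g, and the part of neutrophils in the values of these genes was not tested.

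Set against the pan-leukocyte gene Ptprc, Csf1r was 0.724, 2.09 and 1.05 times as high in Control, 2.00, 1.13 and 5.05 times in AOM/DSS + IgG Ab and 0.532, 1.45 and 0.577 times in AOM/DSS + anti-S100a9 Ab. The groups overlapped, and the exact permutation test gave p = 0.2 between the antibody groups (0.72 after adjustment). The ratio of Ly6c2 to Adgre1, read in many studies as immature against mature cells, ran from 0.160 to 4.29 and overlapped between all groups.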

How the data were processed

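RNA from colon tissue of 9 mice (3 groups of 3) was analyzed. The authors deposited 1 file per mouse with 21544 entries, each a gene symbol and a decimal value. No source used here states the unit of these deposited values, which was taken to be FPKM from their steps and totals. The submitters' processing notes name TopHat, Cufflinks, HTSeq, DESeq and GRCm38, without versions or roles. No counts were used, so limma took the place of a count test.

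Entries that repeated a symbol (46) were summed. The 15278 genes that reached 0.1 FPKM in 3 samples or more were fitted on the unscaled log2(FPKM + 0.1) values with limma 3.58.1 in R 4.3.3 (all 9 samples, intensity trend) and Benjamini-Hochberg adjustment over all of them. Ratios were compared by exact permutation tests. Fragment numbers were estimated from single-fragment steps, and intervals cover the spread between mice. The fit was tested on simulated data. Positions are from GENCODE M21. The replicate numbers were not treated as pairs, since the labels state no pairing, and no 2 files held the same values.

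The members and lists were chosen with earlier results of these data known. Named genes are the 10 genes, from each list the 3 highest genes and the largest rise and fall that passed, the defining markers of other cells, S100a9, the copies Ly6c1 and Lyz1, and the 5 nearest profiles of Csf1r and C1qa. Nearest profiles of the other genes were added after their values were seen. Not every gene of the rule is printed. Alternatives covered the pseudocount, the filter, the scaling, the samples in the fit, the trend, the replicate block, the thresholds and leaving out each mouse. Python 3.11.15, pandas 2.3.3, numpy 2.4.6, Biopython 1.88 and matplotlib 3.10.9 were used.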

Additional observations from a re-analysis of the deposited data

How the results depend on the processing

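Under the 19 alternative fits, 530 of 570 differences of the 10 genes kept their direction and their side of the threshold, 38 changed sign and 2 became significant (Ccr2 and Adgre1 without the second IgG Ab mouse). The count of genes that passed stayed at 0 in every alternative but 2. Between the antibody groups it was 1 by the study's thresholds and 0 to 2 when single mice were left out.

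Signs changed for C1qa and C1qb in IgG Ab against Control with median-of-ratios scaling (-0.063 and -0.061). Between the antibody groups, C1qa and C1qb changed to 0.035 and 0.064 when scaled to the same total, to 0.045 and 0.074 with median-of-ratios scaling and to 0.13 and 0.20 with quantile normalization. C1qa in anti-S100a9 Ab against Control changed to 0.18 when scaled to the same total and to 0.24 with quantile normalization. Scaling to the same total moved the median of all genes in that comparison from 0.04 to 0.23, and median-of-ratios scaling moved it from 0.09 to -0.02 in IgG Ab against Control. The cause of the changes of sign was not tested.

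When single mice were left out, the differences from Control with IgG Ab were -0.42 to 0.15 for Csf1r, -0.996 to 0.246 for Ccr2, -0.82 to 0.056 for Lyz2, -0.19 to 0.44 for C1qa and -0.21 to 0.46 for C1qb. Between the antibody groups they were -0.10 to 0.41 for Csf1, -0.45 to 1.88 for Ly6c2, -0.35 to 0.016 for Cx3cr1, -0.46 to 0.17 for C1qa and -0.45 to 0.22 for C1qb. With anti-S100a9 Ab against Control they were -0.0010 to 0.61 for Cx3cr1, -0.15 to 0.72 for Lyz2, -0.24 to 0.20 for C1qa and -0.22 to 0.27 for C1qb. Log2 ratios changed sign for Csf1 to Csf1r (-0.079 to 0.85 in IgG Ab against Control and -0.54 to 0.40 between the antibody groups), for Ly6c2 to Adgre1 between the antibody groups (-1.43 to 0.91) and for C1qa to C1qb in IgG Ab against Control (-0.032 to 0.023).

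With the replicate block, 0 of the 10 genes passed in each comparison. Same-numbered mice had correlations of -0.19 to 0.25, which with 3 mice a group can neither show nor exclude a pairing. The labels state none. The intervals of the 10 genes reached 0.60 (Csf1r) to 2.69 (Ly6c2) on either side of the difference, so smaller changes could not be told from 0 with 3 mice a group. Larger ones did not always pass after adjustment. The intervals of Adgre1 between the antibody groups (1.05, limma, adjusted p = 0.0702) and of Cd68 in anti-S100a9 Ab against Control (0.87, adjusted p = 0.301) excluded 0. Ly6c2 and Ccr2 also rested on the fewest fragments.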

Other observations

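The nearest profiles of the other genes, a search added after their values were seen and described over 9 samples, differed between the macrophage markers. For Adgre1 the 5 nearest were Heph, an iron-oxidizing enzyme of the enterocyte membrane (RMS difference 0.16), Ccng2 (0.16), Pls1, an actin-bundling protein of the brush border (0.18), Casd1 (0.19) and the glycosyltransferase gene B3galt5 (0.20), where the median gene differed by 0.74 and Csf1r by 0.45. Heph was at 4.74, 9.31 and 6.81 FPKM with IgG Ab and at 11.7, 15.7 and 15.3 with anti-S100a9 Ab. These genes were chosen for profiles like that of Adgre1 over the same samples, so higher values with anti-S100a9 Ab follow from the choice and were not tested.

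For Cd68 the nearest were Ms4a6d, a gene of macrophages and monocytes (0.21), Man1c1 (0.26), Phf11d (0.27), the scavenger receptor gene Msr1 (0.29) and Arhgap19 (0.29). For Lyz2 they were Itgb2 (0.23), Ptpn22 (0.23), Cd48 (0.23), Vav1 (0.24) and Runx3 (0.26), genes used by many leukocytes. For Ccr2 they included the matrix gene Lum (0.32) and Ak4 (0.33). For Cx3cr1 and Csf1 the closest were Gpr65 (0.15) and Krr1 (0.13).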
